A study of Mus musculus with 2 samples.

Results

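Iron transport and storage genes were followed in mouse embryos that inherited chromosome 18 from one parent only. The set was 10 genes, taken by name, with every probe set whose annotation names exactly 1 gene. By that rule 8 of the 10 genes could be read, through 22 of the 45101 probe sets. Transferrin (Trf) and the ferritin light chain gene (Ftl1) could not, because each of their probe sets is assigned to more than 1 gene. The array represented 18193 genes in all.

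The embryos called matUPD18 carried a uniparental disomy of whole chromosome 18 derived from the mother, and those called patUPD18 the same disomy derived from the father. Whole embryos of both kinds were taken at 8.5 days post coitum (dpc), and RNA from each kind was read on 1 Affymetrix mouse array of the type the titles call 430. The labels give neither the number of embryos behind each RNA nor the strain background, and no embryos with normal inheritance of chromosome 18 were on these arrays. With 1 array per genotype there was no replicate check and no test, so genotype, RNA preparation and array cannot be told apart, and the number of arrays limits the precision of every value. None of the 10 genes lies on chromosome 18.

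Iron reaches the early mouse embryo through the visceral endoderm of the yolk sac, an epithelium that takes up nutrients and secretes carrier proteins such as transferrin. Ferroportin (Slc40a1) is the exporter that passes iron out of such cells. Primitive red cells, made in the yolk sac blood islands, are the main consumers: transferrin receptor (Tfrc) takes in iron-loaded transferrin, Steap3 reduces the iron in the endosome, the divalent metal transporter (Slc11a2, also used by absorptive epithelia) moves it to the cytosol, and mitoferrin (Slc25a37) carries it into mitochondria for haem synthesis. All cells store spare iron in ferritin, whose heavy chain Fth1 oxidises it. The iron regulatory proteins Aco1 and Ireb2 bind a hairpin, the iron-responsive element, in the transcripts of Fth1, Ftl1 and Slc40a1, where they hold back translation, and in those of Tfrc and Slc11a2, where for Tfrc they protect the transcript from decay. An array measures the transcript and not the translation.

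Values are deposited signal intensities in arbitrary units, and ratios are matUPD18 over patUPD18. Signals under an array's 40th percentile (84.2 in matUPD18 and 82.5 in patUPD18) were set to that percentile before logarithms were taken. A probe set was called measurable where it reached the 60th percentile of either array (190.1 in matUPD18 or 184.9 in patUPD18). Of the 22 probe sets 14 were measurable, and of the 8 genes 7 were, with Steap3 the exception. Each gene was represented by its brightest probe set. Among measurable probe sets of the same gene, log2 ratios scattered with a pooled standard deviation of 0.44 (4003 genes), a measure of technical disagreement that leaves out differences between embryos.

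No measurable iron gene differed by 2-fold: 0 of 7 passed it in either direction. Across all 10484 measurable genes the 2-fold threshold was passed upward in matUPD18 by 283 (2.7%) and downward by 187 (1.78%), so a count of 0 among 7 is near the background. The brightest probe sets of 3 genes read higher in matUPD18 and those of 4 read lower. Their median log2 ratio was -0.03, against -0.04 for all measurable genes. Over the 14 measurable probe sets, 7 read higher in matUPD18 and 7 read lower. By brightest probe set the gene furthest from equality was Slc40a1. The other 6 then lay between log2 ratios of -0.38 and 0.32, within the pooled disagreement of 0.44. Dimmer measurable probe sets of Fth1 (-0.58) and Slc11a2 (0.72 and -0.48) lay beyond it, while those of Tfrc (0.42), Aco1 (0.32) and Slc11a2 (0.40) did not.

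**Figure D1:**
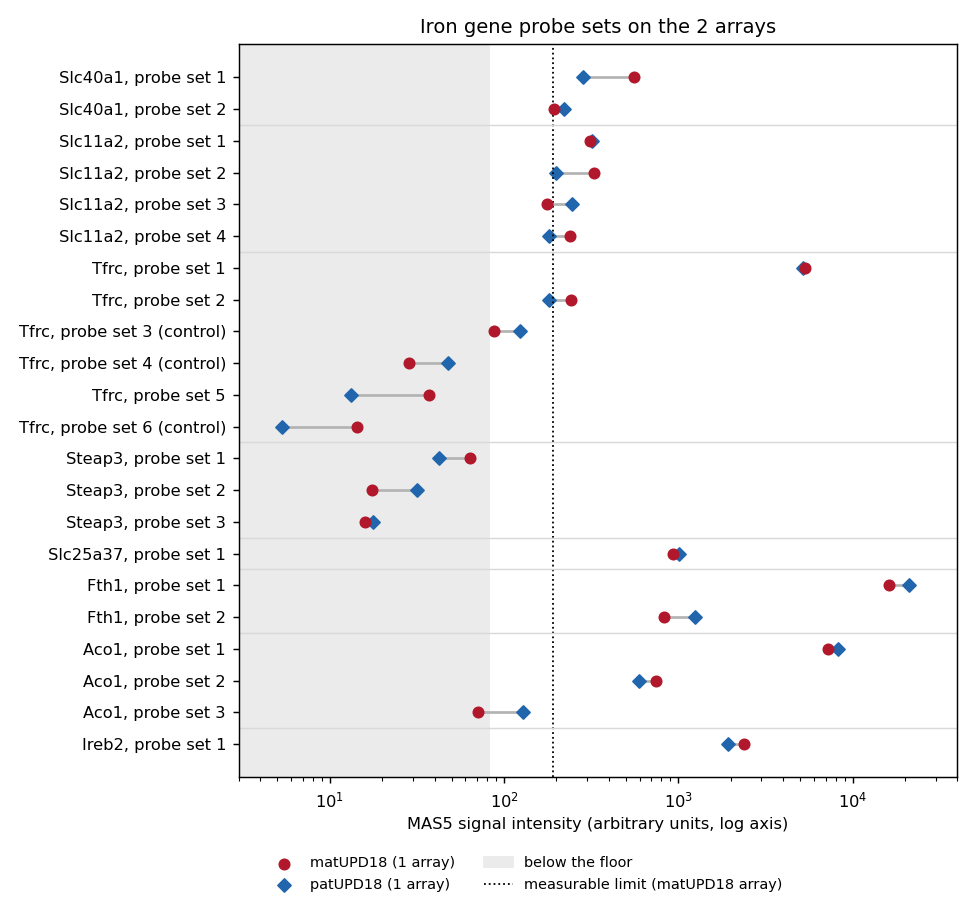
Signal intensity of the 22 single-gene iron probe sets, on a log axis in arbitrary units, with 1 point for the matUPD18 array (circle) and 1 for the patUPD18 array (diamond) and a line joining them; shading marks signals under the floor and the dotted line the measurable limit of the matUPD18 array. The brightest Tfrc and Slc25a37 pairs nearly coincide, the brightest Slc40a1 pair (554.9 in matUPD18 and 282.6 in patUPD18) stands apart, and all 3 Steap3 pairs lie in the shading.

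Of the genes with a yolk sac role, Slc40a1 was higher in matUPD18 by 1 probe set of 2. Its brightest probe set gave 554.9 in matUPD18 and 282.6 in patUPD18, a 1.96-fold difference that stops just short of 2-fold (log2 ratio 0.97). It ranked 522nd in size among the 10484 measurable genes and 27th among the 524 of like mean signal, whose 5th to 95th percentiles ran from -0.64 to 0.85. By the second probe set the signal was 193.5 in matUPD18 and 220.4 in patUPD18, slightly lower in matUPD18 (log2 ratio -0.19). The probe sets of this gene thus disagree in direction. Taken as the median of both probe sets the log2 ratio of Slc40a1 was 0.39. The pooled 0.44 describes single probe sets, so it gives no limit for this median.

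Many markers of visceral endoderm differed more, in the same direction. Of 23 measurable markers 15 (65.2%) passed 2-fold upward in matUPD18, against 2.7% of all measurable genes, and 0 downward. The list's log2 ratios had a median of 1.97 and ran from -0.15 to 4.05. The limit on low signals shapes this count and median, since 12 of the 15 reached it on the matUPD18 array only and so had to read higher there. Over all 26 markers on the array, with no such limit, the median was 1.64. Of the 10 that reached it on both arrays 3 passed 2-fold (Afp, Ttr and Rbp4, the genes of alpha-fetoprotein, transthyretin and retinol-binding protein). The median of the 10 was 0.71. Of all genes, 9386 reached the limit on both arrays, and 157 of these passed 2-fold upward in matUPD18. The summed signal of the 26 markers on the array was 43007 in matUPD18 and 9848 in patUPD18. The largest signals in matUPD18 were those of Afp (12717) and Ttr (11979). None was at 0, but in patUPD18 some, such as Apoa1 and Apom, lay under the floor. Apoa1 (an apolipoprotein) was at least 16.6-fold, Apom (another) at least 9.17-fold and Ttr (transthyretin, the thyroid hormone carrier) 8.88-fold higher in matUPD18. Ttr is on chromosome 18, as are Spink1 and Gata6 of this list. For Apom, a dimmer measurable probe set gave a log2 ratio of 0.37. The part of this tissue in the Slc40a1 value was not tested, and in whole-embryo RNA fewer cells of a type cannot be told apart from less RNA per cell.

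Slc11a2, used both by absorptive epithelium and by red cells, had 4 measurable probe sets, of which 2 read higher in matUPD18 and 2 read lower. The brightest was level, at 311.4 in matUPD18 and 318.9 in patUPD18 (log2 ratio -0.03). One read 326.4 in matUPD18 and 198.5 in patUPD18, a 1.64-fold difference. Another read 238.9 in matUPD18 and 181.1 in patUPD18, also higher in matUPD18. The last went the other way, with 176.2 in matUPD18 and 245.2 in patUPD18. The log2 ratios of these probe sets ran from -0.48 to 0.72, so no direction could be given for the gene. The annotation used here does not say which Slc11a2 transcript forms, with or without the iron-responsive element, each probe set reads.

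**Figure D2:**
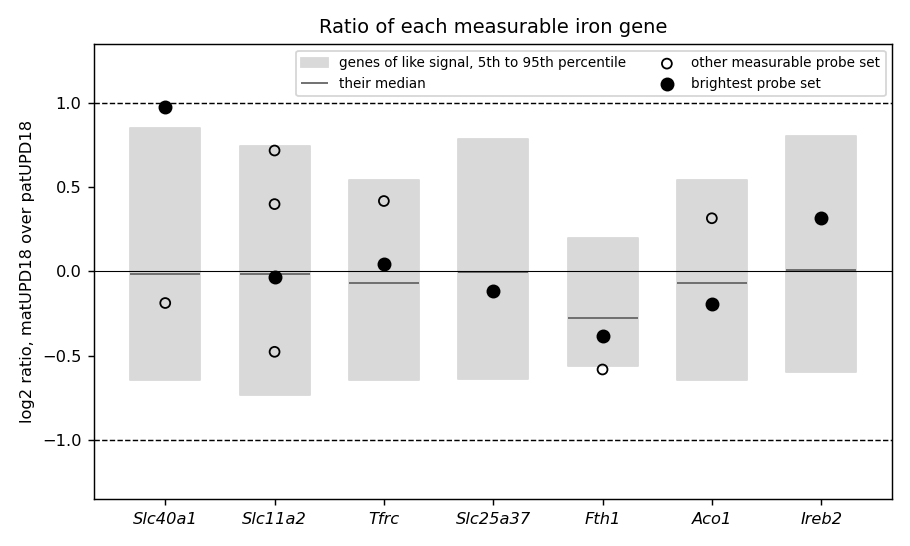
Log2 ratio (matUPD18 over patUPD18) of the 7 measurable iron genes, with a filled point for the brightest probe set, open points for the other measurable ones, a grey bar for the 5th to 95th percentiles of genes of like mean signal and a line at their median. Dashed lines mark 2-fold. Slc40a1 alone has its brightest probe set outside the grey bar, and its second probe set lies below 0.

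The measurable genes grouped here by their red cell role, Tfrc and Slc25a37, were nearly level between the arrays by brightest probe set. The RNA was from whole embryos, so their signals are not those of red cells alone. The part that red cells had in them was not tested. Tfrc read 5356 in matUPD18 and 5201 in patUPD18 by its brightest probe set, a 1.03-fold difference (log2 ratio 0.04). By size this ratio was 480th of the 524 genes of like signal, so most of them differed more. A dimmer Tfrc probe set gave 241.6 in matUPD18 and 180.8 in patUPD18, higher in matUPD18 (log2 ratio 0.42). The other 4 Tfrc probe sets were below the measurable limit on both arrays. They include the 3 control probe sets that Affymetrix places along the transferrin receptor transcript. The one at the 3' end read 87.6 in matUPD18 and 123.8 in patUPD18. The middle one gave 14.3 in matUPD18 and 5.33 in patUPD18. The one at the 5' end gave 28.5 in matUPD18 and 47.8 in patUPD18, and both were under the floor. The remaining one, at 37.2 in matUPD18 and 13.2 in patUPD18, was under the floor too. The RNA had been amplified, a step that favours the 3' end of transcripts. The control at that end was itself below the measurable limit. Why these probe sets were dim was not tested, and they give no ratio for the gene.

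Slc25a37, the mitochondrial iron importer of red cell precursors, read 933.0 in matUPD18 and 1012 in patUPD18 by its 1 single-gene probe set. This 1.08-fold difference (log2 ratio -0.12) was 412th by size of the 524 genes of like signal. Steap3 was not measurable: its 3 probe sets read 63.5, 17.6 and 15.8 in matUPD18 and, in the same order, 42.2, 31.5 and 17.6 in patUPD18. All lie under the floor, so no fold is given for this reductase.

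Other genes of primitive red cells read mostly lower in matUPD18. Of 23 measurable red cell markers 7 (30.4%) passed 2-fold downward in matUPD18, against 1.78% of all measurable genes, and 0 upward. The list's log2 ratios had a median of -0.71 and ran from -1.65 to 0.32, with 20 markers lower and 3 higher in matUPD18. Ermap, which encodes a protein of the erythroid membrane, was 3.15-fold lower in matUPD18, the erythroid repressor gene Gfi1b 3.11-fold and the anion exchanger gene Slc4a1 2.63-fold lower. A dimmer measurable Slc4a1 probe set was also lower but short of 2-fold, at a log2 ratio of -0.83. Of the 7, Gfi1b and Gata1 reached the measurable limit in patUPD18 only. The other 5 were among 16 markers that reached it on both arrays. Of all genes, 9386 did so, and 66 of these passed 2-fold downward in matUPD18. With the floor at the 60th percentile 5 markers passed 2-fold and the list median was -0.52. The summed signal of the 27 markers on the array was 57926 in matUPD18 and 84305 in patUPD18, with the globin genes Hbb-y and Hbb-bh1 the brightest. None was at 0, but Epb42 lay under the floor on both arrays. Beside these, Tfrc at 0.04 and Slc25a37 at -0.12 lay nearer to the median of all genes than to that of the red cell list. Whether they differ from that list was not tested.

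Haem synthesis, the step that uses the iron that mitoferrin delivers, read mostly lower in matUPD18. By brightest probe set, 11 of 13 measurable genes were lower and 2 higher in matUPD18, and the median log2 ratio was -0.55. Of all 10484 measurable genes 5652 were lower. Among the 11, Uros was nearly level at -0.01. Alad, Ppox, Uros and Cpox each had another measurable probe set that read higher, at 0.51, 0.31, 0.24 and 0.08. At 2-fold 3 of the 13 haem genes (23.1%) were lower, against 1.78% of all measurable genes, and Alas2 is also on the red cell list. Alas2, the first enzyme of the pathway in red cells and itself the product of a transcript with an iron-responsive element, read 262.0 in matUPD18 and 607.8 in patUPD18 (2.32-fold lower in matUPD18). Tmem14c, which moves porphyrin precursors across the inner mitochondrial membrane, read 1989 in matUPD18 and 4093 in patUPD18 (2.06-fold lower). Urod, a decarboxylase in the middle of the pathway, read 3180 in matUPD18 and 6381 in patUPD18 (2.01-fold lower), and a dimmer measurable probe set gave a log2 ratio of -0.76. Fech, the ferrochelatase that inserts the iron, is on chromosome 18 and was 1.67-fold lower in matUPD18, while its other measurable probe sets had log2 ratios of -0.45 and 0.06. Alas1, the form of the first enzyme found in all cells, was level at a log2 ratio of 0.01. Without probe sets whose suffix marks a match to several transcripts, 0 of the 11 measurable haem genes left were 2-fold lower and the median was -0.17. Alas2 and Tmem14c were removed by this rule and not found level. Their only measurable probe sets carry the suffix for several transcripts of the same gene. Urod was then read by its dimmer probe set at -0.76.

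The storage gene Fth1 was somewhat lower in matUPD18 by both of its probe sets. The brightest read 16195 in matUPD18 and 21095 in patUPD18, a 1.30-fold difference (log2 ratio -0.38). The second, which may match several transcripts, was at 829.9 in matUPD18 and 1242 in patUPD18 (log2 ratio -0.58). The brightest genes as a class leaned the same way: the 524 genes of like signal had a median log2 ratio of -0.28 and 5th to 95th percentiles from -0.56 to 0.20. Fth1 ranked 158th in size among them. After quantile scaling, which removes that lean, the log2 ratio of Fth1 was -0.12, and after loess scaling it was -0.14.

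The iron regulatory proteins were within 1.25-fold. Ireb2, which is degraded when iron is plentiful, read 2388 in matUPD18 and 1917 in patUPD18 (log2 ratio 0.32), a ratio 246th by size of the 525 genes of like signal. Aco1, which switches between an aconitase enzyme and an RNA-binding protein as its iron-sulphur cluster comes and goes, read 7224 in matUPD18 and 8271 in patUPD18 by its brightest probe set (log2 ratio -0.20). That probe set has a suffix for possible matches to other transcripts. The Aco1 probe set without such a suffix read 740.4 in matUPD18 and 594.8 in patUPD18, with the opposite log2 ratio of 0.32. The remaining one, below the measurable limit, read 70.5 in matUPD18 and 128.5 in patUPD18. The directions of the Aco1 probe sets therefore disagree, and neither difference exceeds 0.44.

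Sorted by where their transcripts carry the iron-responsive element, the measurable iron genes showed no shared direction. By brightest probe set, those with it in the 5' leader were Fth1 at -0.38 and Slc40a1 at 0.97. Those with it after the coding part were Tfrc at 0.04 and, in some of its forms, Slc11a2 at -0.03. The second Slc40a1 probe set read -0.19, and those of Slc11a2 ran from -0.48 to 0.72. Which Slc11a2 forms they read is not known, so its place in this sorting is uncertain. Of 4 further measurable transcripts listed as carrying the element, 1 was at least 2-fold higher and 1 at least 2-fold lower in matUPD18. Of all measurable genes 2.7% were higher and 1.78% lower by this threshold, but 4 transcripts are too few to compare as a share. Alas2 was the lower one of the 4. Cdc14a, a phosphatase gene, was the higher one at 2.65-fold by its brightest probe set, with 446.1 in matUPD18 and 168.6 in patUPD18 (below the measurable limit there), while its second probe set was level at a log2 ratio of 0.06. A hairpin of this kind (a C, 5 bases, the loop CAGTGN and 5 bases that pair with the first 5) was searched for on the transcript strand. The windows searched were the 50 bases after transcript starts of 27025 genes in GRCm38.p6. It was in 0 of the 11 iron gene windows, which covered only 6 of the iron genes, and in 2 of all 32851 windows (0.00609%). An element after the coding part, as in Tfrc and Slc11a2, could not be found this way. The result says only that these letters are not in this short window.

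The rest of the iron pathway centred near equality. Of 42 other iron handling genes 29 were measurable, 12 higher and 17 lower in matUPD18, with 0 past 2-fold upward and 1 (3.45%) downward. Of all measurable genes 2.7% passed 2-fold upward and 1.78% downward, so both counts are near the background. Their median log2 ratio was -0.10, and it was 0.10 without suffixed probe sets. At 1.5-fold, 2 (6.90%) were higher in matUPD18, against 9.97% of all measurable genes, and 6 (20.7%) were lower, against 8.74%. Flvcr1, a haem exporter, read 976.8 in matUPD18 and 537.4 in patUPD18 (1.82-fold higher in matUPD18), and a dimmer measurable probe set was also higher at a log2 ratio of 0.62. Fbxl5, the iron-sensing subunit of the ubiquitin ligase that removes the Ireb2 protein, read 2396 in matUPD18 and 1585 in patUPD18 (1.51-fold higher). Both genes thus read higher in matUPD18 without reaching 2-fold.

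Among those lower in matUPD18, Abcb8, a mitochondrial transporter, read 111.7 in matUPD18 and 305.2 in patUPD18 (2.73-fold lower). It was the only one past 2-fold, and with the floor at the 60th percentile it was no longer so. Abcb8 reached the measurable limit in patUPD18 only, which favours a lower reading in matUPD18. Cp, the iron-oxidising plasma protein ceruloplasmin, read 216.4 in matUPD18 and 417.0 in patUPD18 (1.93-fold lower). Iscu, the scaffold on which iron-sulphur clusters are built, read 988.9 in matUPD18 and 1726 in patUPD18 (1.75-fold lower). Neo1, a co-receptor in hepcidin control, was 1.72-fold lower by its brightest probe set, but 1 of its 3 other measurable probe sets had a log2 ratio of 1.02 and so the opposite direction.

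**Figure D3:**
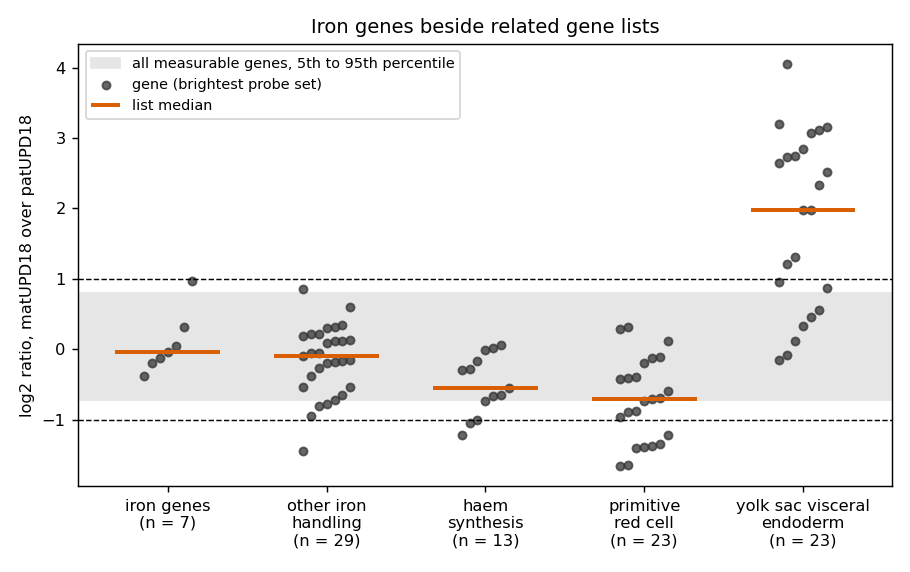
Log2 ratio (matUPD18 over patUPD18) of each measurable gene in 5 lists, 1 point per gene, with an orange line at the list median and a grey band for the 5th to 95th percentiles of all measurable genes. Dashed lines mark 2-fold. The iron genes centre on -0.03 and the other iron handling genes on -0.10, the haem synthesis and red cell lists on -0.55 and -0.71, and the yolk sac list on 1.97.

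Markers of further cell types were sparse. Macrophages recycle iron, and of 10 of their markers 4 were measurable and 0 passed 2-fold by their brightest probe sets. A dimmer measurable probe set of Csf1r, a gene on chromosome 18 whose brightest one was level at 0.06, was lower in matUPD18 with 96.0 against 253.7 in patUPD18 (log2 ratio -1.40). The median of the 4 log2 ratios was 0.15, with summed signals of 1555 in matUPD18 and 1565 in patUPD18. Of 5 trophoblast markers on the array 3 were measurable and all 3 read higher in matUPD18 by less than 2-fold, with summed signals of 1298 in matUPD18 and 952.0 in patUPD18. Of 5 decidual markers 1 was measurable, with summed signals of 602.8 in matUPD18 and 582.6 in patUPD18. No listed marker was at 0, though some lay under the floor on both arrays, so this does not show that each was detected. As a check on the labels, Impact, the imprinted gene of chromosome 18 read from the paternal copy, was 7.51-fold lower in matUPD18, with 328.4 in matUPD18 and 2466 in patUPD18. The 9 bacterial and phage hybridisation controls read lower in matUPD18, with a median log2 ratio of -0.50, so the direction of small ratios rests on scaling both arrays to a common mean.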

How the data were processed

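The authors deposited 1 signal intensity for each probe set on each array, computed with MAS5/GCOS according to the submitters' processing notes, which name no versions. Per the labels' protocols, RiboAmp amplification came before biotin labelling. The 2% trimmed mean was 500.003 in matUPD18 and 500.004 in patUPD18, so both arrays had been scaled to a common level, and no further scaling was applied.

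Of 45101 probe sets, 34958 had 1 gene symbol in the platform annotation and 932 several; 34754 symbols were updated by Entrez identifier from the RefSeq table of GRCm38.p6. Genes of like signal are 1 of 20 equal groups by mean log2 signal, and ranks describe these arrays only. The iron genes, gene lists and thresholds were chosen with earlier results of these data known. The named genes are all iron genes, up to 4 in each direction past 1.5-fold for the iron handling and haem lists, up to 3 past 2-fold for every other list, and Impact. Alas1, Afp, Rbp4, Spink1, Gata6, Gata1 and Csf1r were named after their values were seen. Alternatives were 3 other scalings, other floors, measurable limits and probe set rules, and a 1.5-fold threshold.

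A simulation used 10484 genes with noise of 0.44 on the log2 ratio. At the 2-fold threshold, 50 of 100 genes set to 2-fold were called, as were 99 of 100 set to 4-fold. Among 10284 genes left level, 226 (2.20%) were called. These rates were set by the noise put in and by placing the 2-fold genes at the threshold itself. They therefore do not test the arrays. Python 3.11.15, pandas 2.3.3, numpy 2.4.6, statsmodels 0.14.6 and matplotlib 3.10.9 were used.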

Additional observations from a re-analysis of the deposited data

How the results depend on the processing

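No paired analysis was possible because there was 1 array per genotype. Of 322 recomputed values, 296 kept within the tolerance used (0.44 for a gene, 0.44 divided by the square root of the number of genes for a list median, 1.5 times for a count). Part of this was fixed in advance, because other floors and measurable limits left the ratio of every measurable iron gene unchanged. The gene tolerance also let a change of sign count as kept, as for Slc11a2 (0.18) and Aco1 (0.06) by the median over measurable probe sets. The iron gene and other iron handling medians, which lay near 0, changed sign with the probe set rule, as did Slc11a2 and Aco1. By the median over measurable probe sets, Slc40a1 had a log2 ratio of 0.39, the iron gene median was 0.18, the haem synthesis median -0.29, and 0 other transcripts with the iron-responsive element were 2-fold higher in matUPD18. Without suffixed probe sets, which leaves 5 iron genes, Aco1 and the iron gene median were both 0.32. The other iron handling median was then 0.10 and that of the other element-bearing transcripts 0.74. That of haem synthesis was -0.17 and that of the yolk sac list 1.59. By this rule 9 yolk sac genes were 2-fold higher in matUPD18. In each of the other iron handling, element-bearing and haem lists 0 genes were 2-fold lower. Abcb8, Alas2 and Tmem14c had left these lists with their suffixed probe sets, so they were removed and not found level. With the floor at the 60th percentile the yolk sac median was 1.29 and the red cell median -0.52, and 0 other iron handling genes were 2-fold lower. The yolk sac median was 1.64 with the measurable limit at the 40th percentile. With it at the 75th, the yolk sac median was 2.65, the haem synthesis median -0.42, and 0 other iron handling genes were 2-fold lower. Alternatives chosen after seeing the data changed the limit on low signals for the yolk sac and red cell lists. Over all their genes on the array the medians were 1.64 and -0.60. Over genes that reached the limit on both arrays the yolk sac median was 0.71, with 3 genes 2-fold higher in matUPD18, and the red cell median was -0.65. At 1.5-fold, 1 of 7 iron genes (Slc40a1, 14.3%) was higher in matUPD18, against 9.97% of all measurable genes. A count of 1 among 7 is too small to set apart from that share. Under the 3 other scalings Slc40a1 stayed between 0.92 and 0.94 and Fth1 between -0.42 and -0.12. The cause of these shifts was not tested, beyond the smaller numbers of genes or probe sets each setting leaves. Signal over background limits Steap3 and 8 of the 22 probe sets.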

Other observations

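A further 5 probe sets carry the name of an iron gene together with other genes, and their signals are not levels of any one gene. Those assigned jointly to Ftl1 and its pseudogene Ftl1-ps2 read 1100 in matUPD18 and 1082 in patUPD18, and 1028 in matUPD18 and 1230 in patUPD18. Another, assigned to these and to copies of a microRNA gene, read 538.4 in matUPD18 and 629.4 in patUPD18. All 3 were within 1.20-fold. The probe set assigned jointly to Trf and Srprb read 28.5 in matUPD18 and 7.86 in patUPD18, and that assigned to Slc25a37 and Gm16867 read 6.60 in matUPD18 and 48.6 in patUPD18. Both lie under the floor on each array, so no fold is given.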
